A study of Danio rerio with 6 samples.

Results

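The genes described here are 44 named DNA replication and S phase genes of the zebrafish, found in the deposited table by gene symbol with letter case ignored. All 44 names were found, and RRM2 and MCM6 had 2 rows each, so 46 of the 32057 rows were members. All 46 passed the filter on low values, a level of at least 1 TPM in at least 3 libraries, as did 16537 rows in all. TPM is a transcript level per gene length scaled to the same total in every library, so levels of different genes can be compared on it. Symbols are written as the name table gives them, and genes that share one are given with their identifier.

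Whole kidney marrow, where adult fish make blood, was compared between wild-type siblings and fish heterozygous for rad21nz171, a germline nonsense allele in exon 8 of rad21a. Wild-type siblings came from crosses between heterozygous parents. Each genotype had 3 libraries, called pools 1 to 3, and each library held marrow pooled from 3 fish. All fish were adult, their sex and exact age are not stated, and 1 mutant allele was used.

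Before S phase, the origin recognition complex, CDC6 and CDT1 load the ring of MCM2 to MCM7 onto DNA, a step called licensing that geminin (GMNN) restrains. CDC45 and the GINS complex then turn that ring into the moving helicase, and the clamp PCNA, placed by the RFC clamp loader, holds the polymerases on the DNA. Many of these genes are switched on together by E2F factors as cells enter the cycle, and in marrow they are active in dividing blood progenitors. Eggs also store replication proteins and their messages for the fast divisions of the early embryo.

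The libraries differed in more than genotype. Transcripts of 19 egg and ovary marker genes summed to 19475 TPM in wild-type pool 2, to 5505 TPM in wild-type pool 3 and to 324 TPM in wild-type pool 1. In heterozygous pools 1 to 3 they summed to 226, 170.5 and 5.06 TPM, with 13, 12 and 0 of the 19 at 1 TPM or more, against 13, 18 and 18 in wild-type pools 1 to 3. Globin genes held 6.18% to 22.2% of the TPM in a library, with the highest share in wild-type pool 1. Liver transcripts, a list of 14 rows added after seeing the data, summed to 21801 TPM in wild-type pool 1 and to between 190.1 and 1068 TPM elsewhere. Marrow markers were present in every library, such as the neutrophil gene lyz, at 13257 TPM or more. The mutated gene rad21a stood at 110.1, 73.9 and 108 TPM over wild-type pools 1 to 3, against 67.4, 61.6 and 61.98 TPM over heterozygous pools 1 to 3. The genotypes did not overlap for rad21a, and no call was made (log2 fold change -0.58 ± 0.22, SE; limma adjusted p = 0.30).

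Levels of the replication genes varied more among the wild-type pools than among the heterozygous pools. In 41 of the 46 members the wild-type order was pool 2, then pool 3, then pool 1, an order that held for 38.7% of all tested genes. Wild-type pool 2 was the highest of the 6 libraries for 39 members, where 35.1% of all tested genes were highest in that pool. Wild-type pool 1 was the lowest of the 6 for 30 members, against 30.9% of all tested genes. With globin genes removed and the rest rescaled, pool 1 was the lowest for 23 members (19.2% of all tested genes), and with rescaling by median ratios for 20 (16.5%). The summed TPM of all members was 1280 in wild-type pool 1, 3692 in pool 2 and 1970 in pool 3, and 1770, 1827 and 1514 in heterozygous pools 1 to 3. The median coefficient of variation of a member was 51.2% over the wild-type pools and 12.6% over the heterozygous pools, beside 30.5% and 18.8% over all tested genes.

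**Figure D1:**
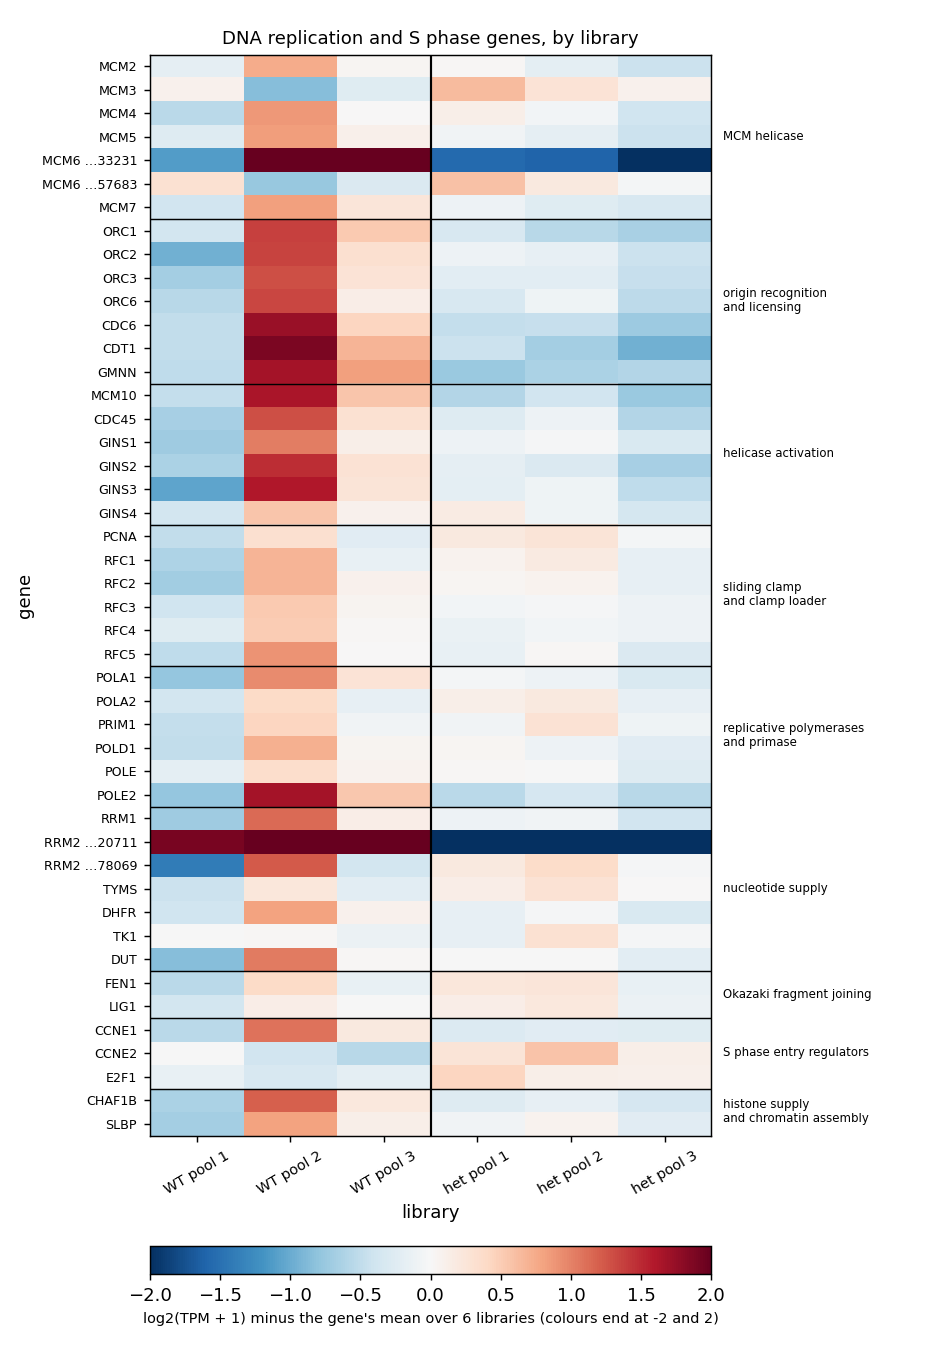
Colour gives log2(TPM + 1) of each of the 46 members (vertical axis, grouped by role) in each of the 6 libraries (horizontal axis) minus the gene's mean over the libraries; members that share a symbol carry the end of their identifier. Wild-type pool 2 is red and wild-type pool 1 is blue for most rows, but wild-type pool 1 is red for RRM2 (ENSDARG00000020711). The heterozygous pools are pale apart from both genes with the darkest rows, MCM6 (ENSDARG00000033231) and RRM2 (ENSDARG00000020711).

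Genotypes were compared with a linear model in limma on log2(TPM + 1), with p-values adjusted by the Benjamini-Hochberg method over all 16537 tested genes and a threshold of 0.05. P-values measure the spread between these pools. A fold change is heterozygous against wild type on that scale, on which low genes appear to differ less than they do. Of the 46 members 1 was called lower and 0 were called higher, where 0.562% and 0.81% of all tested genes were. At an unadjusted limma p under 0.05, 4 members were lower and 1 was higher, beside 7.88% and 7.12% of all tested genes. Fold changes were negative for 33 members and positive for 13, and their median was -0.28, beside 51.9% negative and a median of -0.02 over all tested genes. The sign of that median rested on wild-type pool 2, and without it 27 members were positive and the median was 0.097. In bulk tissue, fewer cells of a type and less RNA per cell cannot be told apart.

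The called member was RRM2 (ENSDARG00000020711), a gene for the reductase small subunit, which with the large subunit RRM1 makes deoxynucleotides for DNA synthesis. It stood at 70.8, 425 and 112 TPM over wild-type pools 1 to 3, against 1.98, 2.52 and 0.429 TPM over heterozygous pools 1 to 3. Every heterozygous pool lay far below every wild-type pool, and the heterozygous mean was 0.811% of the wild-type mean. RRM2 (ENSDARG00000020711) fell with a log2 fold change of -5.94 ± 0.69 (SE, 95% interval -7.58 to -4.30; limma adjusted p = 0.013). By a two-sided exact permutation test p was 0.1, the smallest that 3 pools against 3 allow. Its sign held in all 18 alternatives, with log2 fold changes from -6.72 to -4.04. It was called in 12 of them, at limma adjusted p from 0.010 to 0.11 over the 18. The call was lost without wild-type pool 3 (limma adjusted p = 0.065), without heterozygous pool 1 (0.054) and without heterozygous pool 3 (0.053), each with a log2 fold change between -6.15 and -5.54.

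Its partner RRM2 (ENSDARG00000078069) showed no such gap. It stood at 62.7, 395 and 129 TPM over wild-type pools 1 to 3, against 191.4, 217 and 165 TPM over heterozygous pools 1 to 3, which lay between the wild-type extremes (log2 fold change 0.36 ± 0.62, SE; limma adjusted p = 0.79). Of the TPM of both copies, RRM2 (ENSDARG00000020711) held 53.0%, 51.8% and 46.4% in wild-type pools 1 to 3. In heterozygous pools 1 to 3 it held 1.02%, 1.14% and 0.259%. That share was near even in each wild-type pool although their summed level ran from 133.5 to 819 TPM, and it was near nil in each heterozygous pool. A two-sided exact permutation test of the share gave p = 0.1, the smallest possible with 3 against 3. Summed over both copies, an alternative added after seeing the data, RRM2 stood at 398 ± 369 TPM over wild-type pools 1 to 3, against 193 ± 27.1 TPM over heterozygous pools 1 to 3 (SD, n = 3 each), with overlap and no call (limma adjusted p = 0.64). How reads that match both copies were counted is not stated, so the split between them is uncertain. Whether the sequence of this gene differed between the genotypes' fish, which could change how its reads matched, was not tested.

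**Figure D2:**
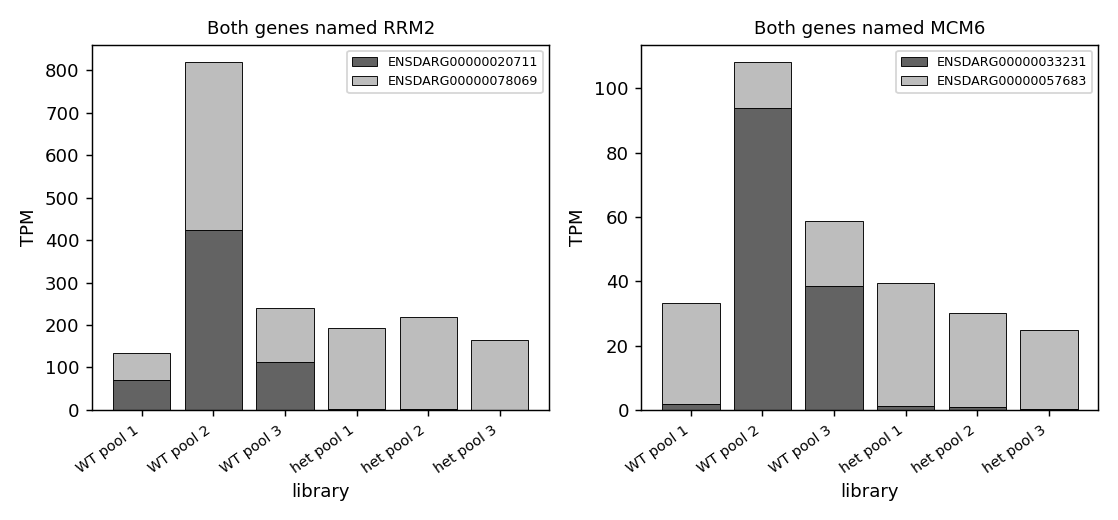
Stacked bars give the TPM of both genes named RRM2 (left) and of both genes named MCM6 (right) in each library, 1 bar per pool and 1 shade per gene. The dark RRM2 share is near even with the other in the 3 wild-type pools (46.4% to 53.0%) and at most 1.14% in the heterozygous pools, while the dark MCM6 share is large in wild-type pools 2 and 3 alone.

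Among the other nucleotide genes no difference passed the threshold. RRM1, the large reductase subunit, stood at 33.5, 123 and 60.9 TPM over wild-type pools 1 to 3, against 51.4, 52.6 and 42.1 TPM over heterozygous pools 1 to 3, which lay inside the wild-type range. TYMS, which makes thymidylate, stood at 48.7 ± 11.99 and 58.4 ± 5.79 TPM, and dhfr, which regenerates the folate that TYMS uses, at 28.9 ± 12.8 and 21.5 ± 2.18 TPM (SD, n = 3 each). TK1, the thymidine salvage kinase, was the steadiest member over the wild-type pools, at 20.5, 21.0 and 18.96 TPM, beside 18.3, 25.8 and 20.3 TPM over heterozygous pools 1 to 3. DUT, which removes dUTP, stood at 9.32, 37.3 and 17.96 TPM over wild-type pools 1 to 3, against 17.5, 17.5 and 15.2 TPM over heterozygous pools 1 to 3.

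The MCM helicase held the other divergent pair of copies. MCM6 (ENSDARG00000033231) stood at 1.84, 93.7 and 38.5 TPM over wild-type pools 1 to 3, against 1.096, 1.04 and 0.217 TPM over heterozygous pools 1 to 3. It was high in wild-type pools 2 and 3 alone, and every heterozygous pool lay below wild-type pool 1. Its log2 fold change was -3.66 ± 1.198 (SE; limma adjusted p = 0.24), and -0.71 against wild-type pool 1 alone. Its partner MCM6 (ENSDARG00000057683) ran the other way among the wild-type pools, at 31.4, 14.4 and 20.4 TPM, and stood at 38.4, 29.1 and 24.5 TPM over heterozygous pools 1 to 3 (log2 fold change 0.50 ± 0.33, SE; limma adjusted p = 0.50). MCM6 (ENSDARG00000033231) held 5.54%, 86.6% and 65.4% of the TPM of both copies in wild-type pools 1 to 3 and at most 3.46% in a heterozygous pool. MCM3 was, with MCM6 (ENSDARG00000057683), 1 of 3 members whose wild-type order was pool 1, then pool 3, then pool 2, at 19.5, 9.67 and 15.3 TPM, and it stood at 28.8, 22.2 and 19.4 TPM over heterozygous pools 1 to 3. E2F1 was the third, and 14.7% of all tested genes had that order.

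The remaining helicase subunits were highest in wild-type pool 2. MCM7, the highest of them, stood at 99.1, 229 and 154.5 TPM over wild-type pools 1 to 3, against 121, 109.7 and 104 TPM over heterozygous pools 1 to 3. All 3 heterozygous pools lay above wild-type pool 1 and below the other wild-type pools (log2 fold change -0.45 ± 0.32, SE; limma adjusted p = 0.53). MCM2 and MCM5 overlapped with wild-type pool 1, and MCM4 with wild-type pool 3. Together these 3 had log2 fold changes of -0.41 for MCM2, -0.23 for MCM4 and -0.45 for MCM5, with limma adjusted p of 0.54, 0.78 and 0.52. Set against the mean of MCM2 to MCM7 in the same library, with both MCM6 copies summed, MCM7 stood at 2.49 ± 0.11 times that mean in the wild type and 2.45 ± 0.15 times in the heterozygotes. On that scale MCM2 stood at 0.376 ± 0.042 and 0.374 ± 0.010 times the mean (SD, n = 3 each). MCM3 stood at 0.279 ± 0.188 and 0.510 ± 0.037 times the mean, and both MCM6 copies together at 0.984 ± 0.168 and 0.682 ± 0.070 times. The genotypes did not overlap for MCM3 or for summed MCM6 on that scale, and they overlapped for MCM2, MCM4, MCM5 and MCM7. Both gaps were narrow at wild-type pool 1. MCM3 stood at 0.476 in that pool and at 0.487 in heterozygous pool 3. Summed MCM6 stood at 0.811 in that pool and at 0.758 in heterozygous pool 1. Of all tested genes, 19.9% were higher and 6.01% were lower in the heterozygotes without overlap on that scale. Each subunit is also part of the mean it is set against.

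Copies and relatives of the replication genes were set beside the egg markers, each as a percent of its level in wild-type pool 2. The egg and ovary marker sum stood at 1.66% in wild-type pool 1, 28.3% in pool 3 and 1.16%, 0.875% and 0.0260% in heterozygous pools 1 to 3. MCM6 (ENSDARG00000033231) stood at 1.96%, 41.1%, 1.17%, 1.11% and 0.232% in the same order. Of 2 genes outside the member list, slbp2, a relative of the histone message binder slbp, stood at 1.95%, 31.1%, 1.64%, 0.423% and 0.0623%. The other, mcm3l, a relative of MCM3 chosen after its values were seen, stood at 2.09%, 35.9%, 1.36%, 1.0004% and 0.0189%. RRM2 (ENSDARG00000020711) stood at 16.7%, 26.4%, 0.467%, 0.592% and 0.101%. Among other members, GMNN stood at 21.98%, 55.9%, 18.6%, 20.1% and 20.9% in that order. MCM3 stood at 201.5%, 158.6%, 298%, 229.8% and 200.2%. Wild-type pool 1 and heterozygous pool 1, a single pair of libraries, differed by 1.44-fold in the egg marker sum. That pair differed by 35.7-fold in RRM2 (ENSDARG00000020711). The part of egg RNA in the levels of these genes was not tested.

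**Figure D3:**
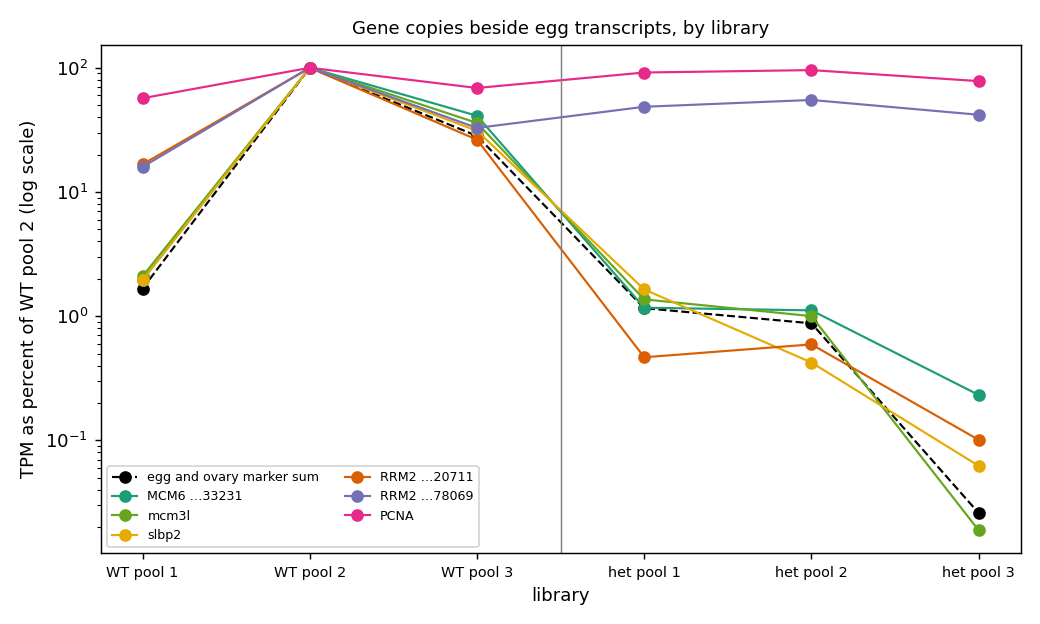
Lines give the TPM of each named gene, and of the summed egg and ovary markers (dashed), as a percent of its own level in wild-type pool 2 on a log scale, in each library. In heterozygous pool 3 MCM6 (ENSDARG00000033231), at 0.232%, lies above the egg markers, at 0.0260%, RRM2 (ENSDARG00000020711) lies above them in wild-type pool 1 at 16.7%, and PCNA and RRM2 (ENSDARG00000078069) stay above 40% in the heterozygous pools.

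Origin recognition and licensing genes had the lowest role median, a log2 fold change of -1.01, with 7 of 7 negative and 0 called. GMNN, the inhibitor of CDT1, stood at 79.7, 363 and 203 TPM over wild-type pools 1 to 3, against 67.5, 73.0 and 75.7 TPM over heterozygous pools 1 to 3. Every heterozygous pool lay below every wild-type pool, by little for wild-type pool 1 (log2 fold change -1.31 ± 0.52, SE; limma adjusted p = 0.31). CDT1, the loader of the MCM ring, stood at 5.88, 34.9 and 14.5 TPM over wild-type pools 1 to 3, against 6.22, 5.07 and 3.97 TPM over heterozygous pools 1 to 3, with overlap through wild-type pool 1 (log2 fold change -1.38 ± 0.57, SE; limma adjusted p = 0.33). CDC6, its partner in loading, stood at 6.39, 33.3 and 12.9985 TPM and at 6.44, 6.53 and 5.23 TPM. ORC1, a subunit of the origin recognition complex, stood at 6.84, 25.0 and 13.4 TPM over wild-type pools 1 to 3, against 7.07, 5.86 and 5.43 TPM over heterozygous pools 1 to 3. Among the other complex subunits, the members orc2, ORC3 and ORC6 had log2 fold changes of -0.47, -0.59 and -0.62. The subunits ORC4 and ORC5 lie outside the member list. ORC4 averaged 27.65 ± 9.49 TPM for the wild-type pools beside 27.65 ± 5.80 TPM for the heterozygous pools (SD, n = 3 each). ORC5 averaged 17.05 ± 8.65 TPM beside 14.34 ± 1.83 TPM in that order. The genotypes overlapped for both.

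Against wild-type pool 1 alone the licensing genes lay on both sides of 0. CDT1, GMNN, ORC1 and CDC6 stood at log2 fold changes between -0.19 and -0.07, and orc2, ORC3 and ORC6 at 0.73, 0.38 and 0.24, with 0 of the 7 called. Without wild-type pool 1, limma called 6 members lower, namely RRM2 (ENSDARG00000020711), MCM6 (ENSDARG00000033231), GMNN, CDT1, ORC1 and MCM10, beside 5.36% of all tested genes. The limma adjusted p without that pool was 0.025 for GMNN, 0.045 for CDT1, 0.049 for ORC1, 0.049 for MCM10 and 0.010 for MCM6 (ENSDARG00000033231). Over the alternatives tried, adjusted p ran up to 0.99, 0.94, 0.97, 0.95 and 0.97 for these genes in that order. In that fit the wild-type side was made of pools 2 and 3, which held most of the egg transcripts, and the part of egg RNA in these calls was not tested.

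**Figure D4:**
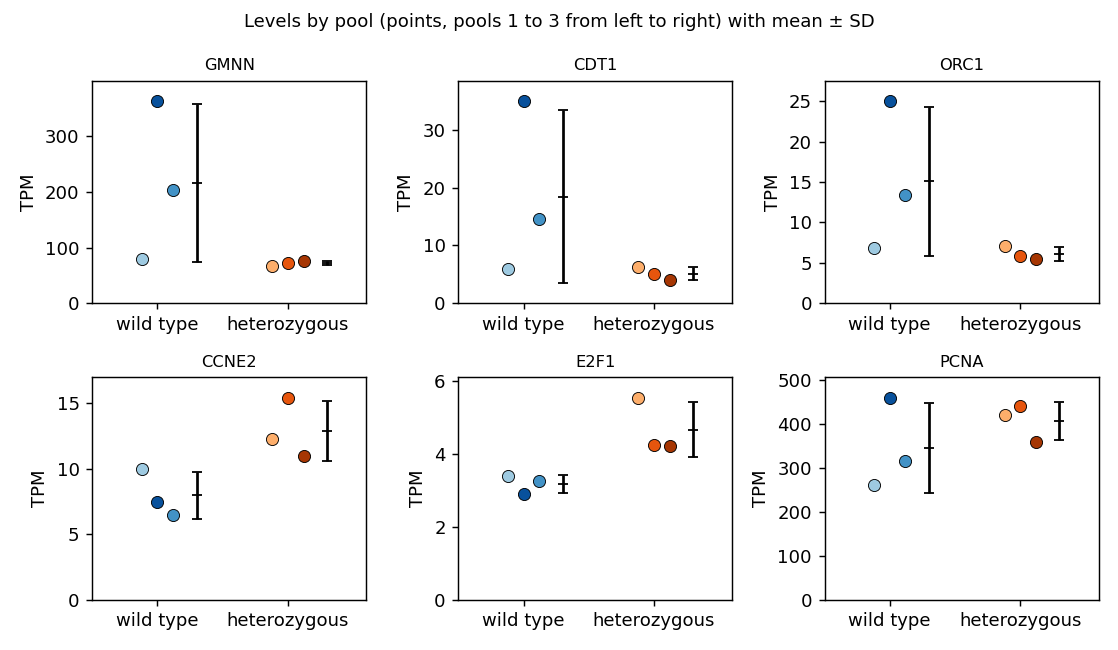
Points give the TPM of 6 members in each pool, with pools 1 to 3 from left to right in each genotype, and bars give the mean ± SD (n = 3 each). GMNN, CDT1 and ORC1 are spread over the wild-type pools and tight in the heterozygous pools near wild-type pool 1, CCNE2 and E2F1 are higher in all 3 heterozygous pools than in any wild-type pool, and the genotypes overlap for PCNA.

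Helicase activation genes had 6 of 6 negative fold changes, a median of -0.58 and 0 called. Of the 6, 3 were positive with wild-type pool 2 left out (median -0.04), beside 48.9% of all tested genes. Against wild-type pool 1 alone 5 of the 6 were positive (median 0.31), beside 65.6%. With the egg and ovary marker score, defined below, as a covariate all 6 were positive (median 0.67), beside 63.5%. GINS2, the highest of them, stood at 18.9, 85.5 and 36.7 TPM over wild-type pools 1 to 3, against 26.3, 24.2 and 18.4 TPM over heterozygous pools 1 to 3, where pool 3 lay just below wild-type pool 1. GINS3 stood at 8.88, 61.7 and 23.6 TPM over wild-type pools 1 to 3, against 17.1, 18.3 and 13.5 TPM over heterozygous pools 1 to 3, between wild-type pools 1 and 3. GINS1 and GINS4 had log2 fold changes of -0.28 and -0.18, and CDC45, which joins GINS and the MCM ring, of -0.63 (limma adjusted p = 0.56). MCM10, which helps the assembled helicase to start, was low throughout, at 2.17, 12.6 and 5.49 TPM over wild-type pools 1 to 3, against 1.92, 2.37 and 1.61 TPM over heterozygous pools 1 to 3 (log2 fold change -1.15 ± 0.50, SE; limma adjusted p = 0.35).

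The sliding clamp and its loader had a median log2 fold change of -0.08 over 6 members, with 4 negative and 0 called. The sign of that median rested on wild-type pool 2. With that pool left out all 6 were positive, with a median of 0.2004, beside 48.9% of all tested genes and a median of -0.0095. All 6 were also positive against wild-type pool 1 alone (median 0.498), beside 65.6% and a median of 0.15. The same held with the egg and ovary marker score, defined below, as a covariate (median 0.724), beside 63.5% and 0.15. PCNA, the clamp and the highest of all members, stood at 262, 460.4 and 316 TPM over wild-type pools 1 to 3, against 422, 441 and 359.5 TPM over heterozygous pools 1 to 3, and the groups overlapped through wild-type pool 2. Its log2 fold change was 0.27 ± 0.25 (SE, 95% interval -0.33 to 0.87; limma adjusted p = 0.63). Relative to the mean of MCM2 to MCM7 in the same library, PCNA stood at 5.54 ± 0.78 times in the wild type and at 8.95 ± 0.82 times in the heterozygotes (SD, n = 3 each), and the groups did not overlap. On that scale 12 of the 46 members were higher without overlap and 7 were lower, beside 19.9% and 6.01% of all tested genes. That ratio sets one gene against another within a library and says nothing of either level alone. Of the loader subunits RFC4 stood highest, at 112.9 ± 31.3 and 96.1 ± 3.12 TPM, and RFC1, RFC2, RFC3 and RFC5 had log2 fold changes from -0.27 to 0.06.

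Polymerase and primase genes had a median log2 fold change of -0.17 over 6 members, with 0 called. All 6 were positive against wild-type pool 1 alone (median 0.41) and with the egg score as a covariate (median 0.63). Over all tested genes 65.6% and 63.5% were positive in those fits, with a median of 0.15 in each. POLE2, an accessory subunit of polymerase epsilon, had the highest mean level of the 6 and stood at 12.8, 73.9 and 33.4 TPM over wild-type pools 1 to 3, against 15.4, 17.8 and 15.2 TPM over heterozygous pools 1 to 3 (log2 fold change -0.94 ± 0.57, SE; limma adjusted p = 0.47). Its catalytic partner POLE was far lower and flatter, at 2.86, 4.66 and 3.67 TPM and at 3.51, 3.42 and 2.72 TPM. POLA1 and POLA2, of the polymerase alpha complex that starts each strand, had log2 fold changes of -0.30 and 0.10, and PRIM1, its primase, of 0.08. POLD1, the catalytic subunit of polymerase delta, stood at 15.4 ± 6.87 and 12.6 ± 1.23 TPM (SD, n = 3 each).

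Both genes that finish Okazaki fragments had positive fold changes and neither was called. FEN1, the flap nuclease, stood at 51.3, 97.3 and 66.96 TPM over wild-type pools 1 to 3, against 87.2, 88.8 and 66.9 TPM over heterozygous pools 1 to 3 (log2 fold change 0.21 ± 0.28, SE; limma adjusted p = 0.74). LIG1, the ligase that seals the nick, stood at 24.4 ± 4.47 and 27.2 ± 3.35 TPM (SD, n = 3 each).

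The S phase entry regulators were the role with the highest median, a log2 fold change of 0.44 over 3 members, with 0 called. Of 34 further tested S phase entry and checkpoint regulators outside the member list, 24 were negative, with a median of -0.22 and 0 called. Over all tested genes 51.9% were negative and the median was -0.02. CCNE2, a cyclin that activates CDK2 at the start of S phase, stood at 9.96, 7.47 and 6.47 TPM over wild-type pools 1 to 3, against 12.2, 15.4 and 11.0 TPM over heterozygous pools 1 to 3. Its log2 fold change was 0.64 ± 0.24 (SE, 95% interval 0.055 to 1.22; limma adjusted p = 0.30), and its sign was positive in all 18 alternatives. E2F1, the transcription factor that drives many replication genes, stood at 3.38, 2.89 and 3.25 TPM over wild-type pools 1 to 3, against 5.54, 4.23 and 4.22 TPM over heterozygous pools 1 to 3 (log2 fold change 0.44 ± 0.20, SE; limma adjusted p = 0.37). For both genes every heterozygous pool lay above every wild-type pool. CCNE1, the other cyclin E gene, had the pattern of the licensing genes, at 2.498, 9.74 and 4.84 TPM over wild-type pools 1 to 3, against 3.20, 3.35 and 3.27 TPM over heterozygous pools 1 to 3.

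On the deposited values, genotypes without overlap were no commoner among the members than over all tested genes. GMNN, RRM2 (ENSDARG00000020711) and MCM6 (ENSDARG00000033231) were lower in every heterozygous pool, 3 of 46 beside 9.79% of all tested genes, and CCNE2 and E2F1 were higher, 2 of 46 beside 11.9%. After rescaling by median ratios, 6 members were lower without overlap (13% of all tested genes), with ORC1, CDC6 and CDT1 added, and 1 was higher (13.5%), E2F1. With globin genes removed, 7 were lower (13.7%), with MCM2 also added, and 1 was higher (11.5%), again E2F1.

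Of the genes that supply chromatin to the new strands, slbp, which binds histone messages, stood at 36.5, 103.7 and 63.9 TPM over wild-type pools 1 to 3, against 56.1, 62.0 and 50.3 TPM over heterozygous pools 1 to 3, inside the wild-type range (log2 fold change -0.16 ± 0.38, SE; limma adjusted p = 0.86). CHAF1B, a subunit of the chromatin assembly factor that deposits histones behind the fork, stood at 5.06, 20.5 and 9.86 TPM and at 6.85, 7.38 and 6.47 TPM. Its log2 fold change was -0.51 ± 0.45 (SE; limma adjusted p = 0.60).

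With wild-type pools 2 and 3 left out, the direction of most members turned. Against wild-type pool 1 alone, 37 of the 46 members were positive, where 65.6% of all tested genes were, and their median log2 fold change was 0.34 beside 0.15 over all tested genes. All 3 heterozygous pools lay above wild-type pool 1 for 32 members (44.3% of all tested genes) and below it for 3 (18.6%). With rescaling by median ratios these counts were 24 (30.3%) and 8 (30.8%). In that fit 0 members were called by limma (0.32% of all tested genes), 10 were higher and 1 was lower at an unadjusted limma p under 0.05, and 13.9% of all tested genes passed that mark in either direction. RRM2 (ENSDARG00000078069) had the largest positive value, 1.58 ± 0.24, followed by GINS3 at 0.80, DUT at 0.78 and orc2 at 0.73 (SE for the first). RRM2 (ENSDARG00000020711) remained negative, at -4.86 ± 0.58 (SE; limma adjusted p = 0.11). The lone wild-type pool was assumed to vary like the heterozygous pools, and it was also the library with the most globin and liver RNA, whose part in these values was not tested.

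The egg and ovary marker score was the mean log2(TPM + 1) of the 13 such markers past the filter. It stood at 4.10, 9.82 and 8.09 over wild-type pools 1 to 3, against 3.69, 3.32 and 0.423 over heterozygous pools 1 to 3. Every heterozygous pool lay below every wild-type pool on that score, so a fit with it cannot fully separate genotype from score. With the score as a covariate, all 6 libraries kept, 43 of the 46 members were positive, beside 63.5% of all tested genes. Their median log2 fold change was 0.59, beside 0.15 over all tested genes, and 0 members were called (0.308% of all tested genes). At an unadjusted limma p under 0.05, 6 members were higher and 1 was lower, beside 4.81% and 4.07% of all tested genes. RRM2 (ENSDARG00000020711) stood at -4.04 in that fit (limma adjusted p = 0.055). Its adjusted p ran from 0.010 to 0.11 over all alternatives.

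**Figure D5:**
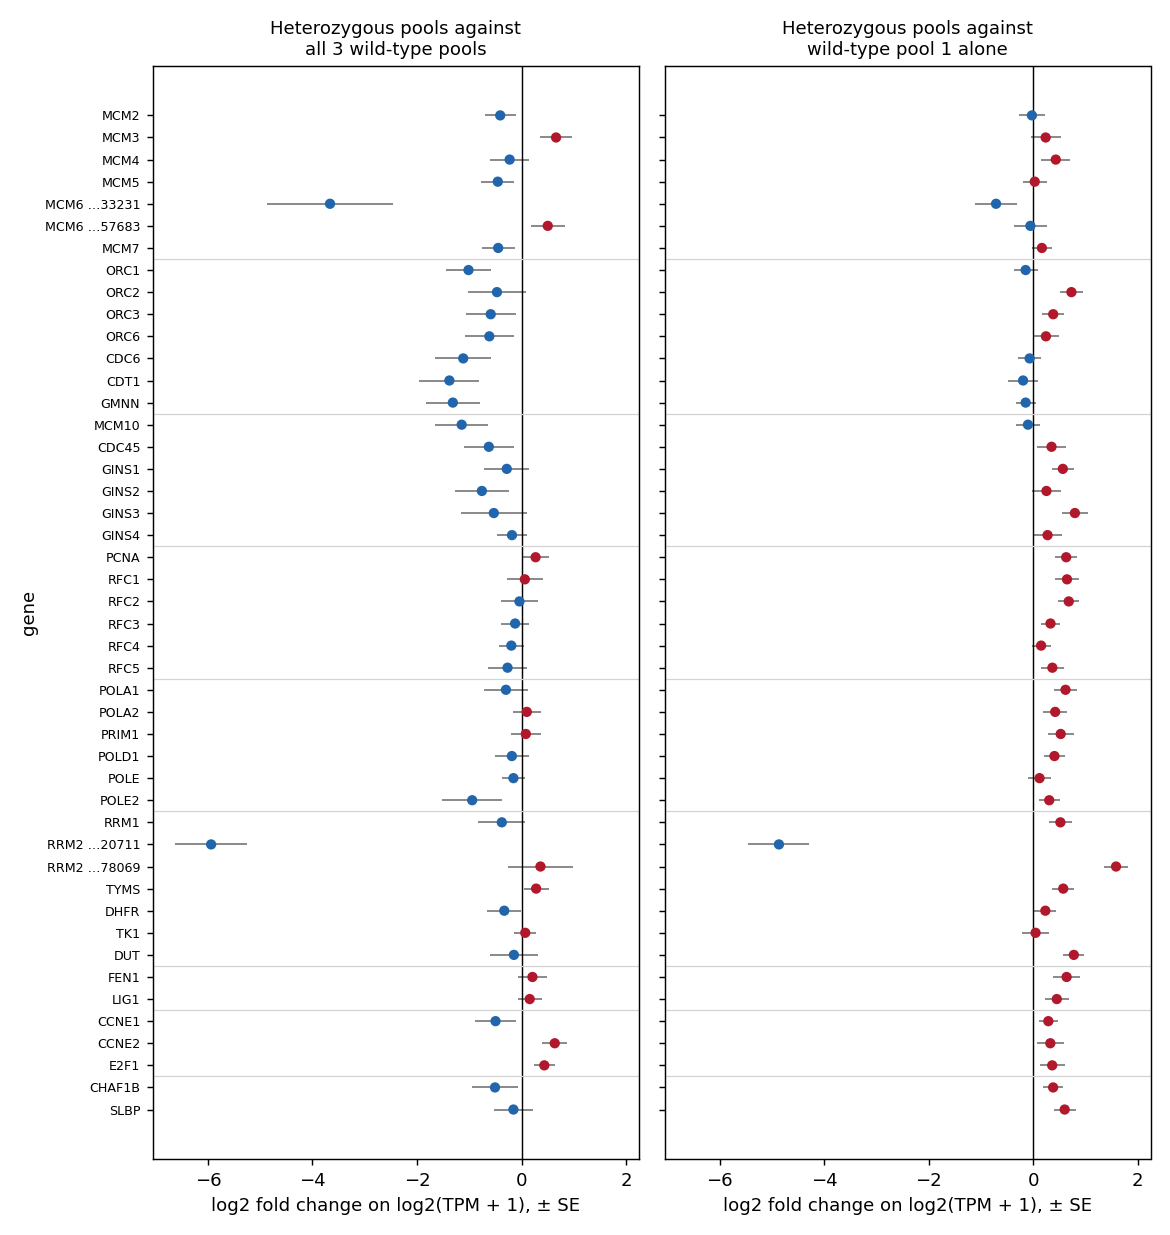
Points give the log2 fold change of each of the 46 members, with its standard error as a bar, for the heterozygous pools against all 3 wild-type pools (left) and against wild-type pool 1 alone (right), in red where positive and blue where negative. On the left 33 of 46 lie below 0 and on the right 37 of 46 lie above 0, with RRM2 (ENSDARG00000020711) far below 0 in both panels.

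Further genes of the pathway, from lists chosen with earlier results known, were counted in the same fit. Of 101 further tested genes of the fork, nucleotide supply, chromatin assembly and S phase control, 0 were called in either direction, 72 were negative and the median log2 fold change was -0.25. Against wild-type pool 1 alone, 65 of the 101 were positive, with a median of 0.13, beside 65.6% and 0.15 over all tested genes. CCNA1, a cyclin of germ cells, had the most negative value, at 6.28, 426 and 84.7 TPM over wild-type pools 1 to 3, against 4.71, 1.17 and 0.0508 TPM over heterozygous pools 1 to 3 (limma adjusted p = 0.22). SHMT2, a mitochondrial enzyme of folate metabolism, was lower in all 3 heterozygous pools, at 68.6, 52.6 and 50.9 TPM and 22.6, 37.5 and 32.8 TPM (limma adjusted p = 0.21). MYBL1, a transcription factor of the MYB family, was higher in all 3, at 1.68, 1.47 and 2.45 TPM and 3.51, 3.56 and 3.63 TPM (limma adjusted p = 0.21). fbxo5, an inhibitor of the ubiquitin ligase that ends mitosis, stood at 12.6, 62.2 and 27.9 TPM and 10.1, 11.9 and 8.61 TPM (limma adjusted p = 0.30).

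G2 and mitosis genes, set beside the replication genes because both mark dividing cells, stayed mostly negative where the replication genes did not. Of 48 tested, 44 were negative with all libraries, with a median log2 fold change of -0.67 and 0 called. At an unadjusted limma p under 0.05, 24 of the 48 were lower (7.88% of all tested genes), and 29 were lower without overlap (9.79%). Against wild-type pool 1 alone 41 of the 48 were negative, with a median of -0.48. In the same fit 37 of the 46 replication genes and 65.6% of all tested genes were positive. With the egg score as a covariate 34 of the 48 were negative and the median was -0.28, where 63.5% of all tested genes were positive. In that fit 1 of the 48 was lower at an unadjusted limma p under 0.05, beside 4.07% of all tested genes. The difference between the 2 lists was not tested.

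Levels of blood cell markers were read beside these counts. Stem and progenitor markers summed to 182, 137 and 196 TPM in the wild type and to 328, 213 and 215 TPM over heterozygous pools 1 to 3. All 6 tested had positive fold changes. SPI1 held 73.8, 65.0 and 92.6 TPM of the wild-type sums and 180, 77.8 and 91.1 TPM of the heterozygous sums. B cell markers summed to 98.7, 122 and 267 TPM and to 1259, 362 and 475 TPM, with 7 of 7 positive. Erythroid markers summed to 1744, 494 and 829 TPM and to 599.8, 1239 and 889 TPM, with 4 of 7 positive. None of the stem and progenitor, B cell and erythroid markers was called, at a limma adjusted p of 0.13 or more. At an unadjusted limma p under 0.05, 1 of 6, 5 of 7 and 1 of 7 were higher in that order, beside 7.12% of all tested genes. Neutrophil markers summed to 16295, 22148 and 24240 TPM and to 51166, 19460 and 19786 TPM, with 5 of 5 positive and 0 called. Fold changes were positive for 4 of 6 macrophage markers and 3 of 6 T cell markers, with 0 called. Markers of other tissues differed too. Interrenal marker sums were 4.49, 147 and 42.1 TPM over wild-type pools 1 to 3, against 9.98, 489 and 741 TPM in heterozygous pools 1 to 3. Of 6 tested, 1 was called higher, beside 0.81% of all tested genes. The interrenal sums were made of different genes. Most of the sum in wild-type pools 2 and 3 was CYP11A1 (ENSDARG00000002347), at 107 and 30.6 TPM, against 1.34 and 3.48 TPM in heterozygous pools 2 and 3. Most of the sum in heterozygous pools 2 and 3 was STAR, at 375 and 561 TPM, against 1.04 and 0.371 TPM in wild-type pools 2 and 3. Skeletal muscle markers summed to 69.4, 33.4 and 40.6 TPM and to 7.54, 14.8 and 9.82 TPM. Of 4 tested, 1 was called lower, beside 0.562% of all tested genes. The part of any of these markers in the levels of the replication genes was not tested.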

How the data were processed

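Bulk RNA from whole kidney marrow was sequenced in 6 libraries, each from pooled marrow, and TruSeq v2 chemistry was used per the labels' protocols. The authors deposited 1 table of TPM. HISAT2 2.0.4, featureCounts, FastQC and build GRCz11 are named by the submitters' processing notes. The annotation, gene lengths, strand setting and handling of reads with several matches are not stated, so values of overlapping genes and near-identical copies are uncertain. TPM keeps no read depth, so no depth, counting interval or count test is given. Symbols came from a name table that held 28988 of the 32057 identifiers.

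Genes with at least 1 TPM in at least 3 libraries were tested on log2(TPM + 1) by limma 3.58.1 (R 4.3.3), with genotype as the only term and a variance trend, two-sided, with Benjamini-Hochberg adjustment over all tested genes. The pipeline was tested on simulated data. The labels do not say whether pools share parents. Members, lists, alternatives and the exclusion of wild-type pools 2 and 3 were chosen with earlier results of these data known. Full statistics are given for RRM2, members with an unadjusted p under 0.05 and the highest member of each role except GINS2. That gene and further members are given by level or fold change. No sequences were used here, so the planned promoter motif search was not run.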

Additional observations from a re-analysis of the deposited data

How the results depend on the processing

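Over all genes limma called 227, against 132 with no filter, 117 with a filter of 5 TPM, 25 with the replicate block, 51 with the egg score as a covariate, 53 against wild-type pool 1 alone, 397 at an adjusted p under 0.10 and 90 to 1088 with 1 library left out. Members called lower numbered 1, against 0 with the replicate block, the egg score, wild-type pool 1 alone or copies summed, and 0 to 6 with 1 library left out. RRM2 (ENSDARG00000020711) missed the threshold with the replicate block (limma adjusted p = 0.054). The member median of -0.28 became 0.59 with the egg score and 0.34 against wild-type pool 1 alone. It became 0.097 without wild-type pool 2 and -0.60 without wild-type pool 1, beside -0.0095 and -0.07 over all tested genes.

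Of the 46 members, 30 changed sign with the egg score and 26 against wild-type pool 1 alone. Of all tested genes, 48.1% were positive in the main fit, 63.5% with the egg score and 65.6% against wild-type pool 1 alone. Sign changes were not counted over all tested genes. Among the members picked by the naming rule, signs turned with the egg score for CDT1 (0.20), MCM7 (0.33), GINS2 (0.65), POLE2 (0.55) and slbp (0.81). Against wild-type pool 1 alone they turned for MCM7 (0.17), GINS2 (0.25), POLE2 (0.31) and slbp (0.60). Leaving out wild-type pool 1 turned RRM2 (ENSDARG00000078069) to -0.25 and FEN1 to -0.0062, and leaving out wild-type pool 2 turned slbp to 0.21. With 1 library left out, values ran from -0.25 to 1.07 for RRM2 (ENSDARG00000078069), from -0.0062 to 0.45 for FEN1 and from -0.53 to 0.21 for slbp. The cause of these moves was not tested. Of 224 alternative values of the members named by that rule, 203 kept their direction and side of the threshold. Another 12 reversed, 3 gained a call and 6 lost it. The reversals came with the egg score, with wild-type pool 1 alone, or with wild-type pool 1 or 2 left out. Only 1 member was called in the main fit, so for the rest keeping the side meant staying uncalled. Correlations of deviations were -0.27, 0.12 and -0.13 for same-numbered pools and ran from -0.33 to 0.37 for differently numbered ones. The labels do not say whether same-numbered pools belong together, and these correlations cannot decide it. Read depth, unknown here, and 3 pools per genotype limit every value.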
